A study of Mus musculus with 48 samples.

Results

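The 300 widest peaks of histone H3 lysine 27 acetylation (H3K27ac) in mouse forebrain at P7, postnatal day 7, are described here, domain by domain, through forebrain development and in heart and liver. They were selected on their measured width in the deposited forebrain P7 list alone, with ties given to the peak the authors ranked better, so their width at P7 is how they were chosen and is not a result. They make up 300 of 36771 forebrain P7 peaks, or 0.816%, and 300 of 620207 peaks in the 24 H3K27ac lists of the series. They are called domains below and are numbered W1 to W300 from the widest to the narrowest.

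The study mapped H3K27ac by immunoprecipitating and sequencing chromatin of CD-1 mice, an outbred laboratory strain. Forebrain, heart and liver were each sampled before birth at E11.5, E14.5 and E17.5 (E, embryonic day) and after it at P0, P7, P21 and P56 (P, postnatal day), and every H3K27ac library had a matching input library of DNA that was not immunoprecipitated. No genotype or treatment other than stage and tissue is labelled. Tissue of several animals was pooled at every stage except P56. There were 2 H3K27ac libraries for forebrain at E11.5 and P56 and for heart at E11.5, and 1 for each other group. Nothing in the labels says if the 2 replicates of a group came from different animals or pools.

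H3K27ac is laid down on nucleosomes around active promoters and active enhancers, and is removed when an element falls silent. Most H3K27ac peaks mark single elements. Unusually wide stretches, where acetylation runs on between neighbouring elements, are known in many tissues for lying at genes of cell identity and at genes that are transcribed strongly in most cells. A tissue such as forebrain mixes neurons, glia and vessel cells, whose proportions change as the brain matures. A peak list cannot tell a change in cell mixture from a change within cells.

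The domains were 64820 bp wide at most and 11095 bp at least, with a median of 13532.5 bp, against a median of 2346 bp and a minimum of 595 bp over all forebrain P7 peaks. Together they spanned 4.87 Mb, which is 4.64% of the 105.0 Mb in the forebrain P7 list. Of the 300, 50 were at least 20 kb wide and 17 at least 30 kb. The narrowest that were included measured 11134, 11119, 11110, 11102 and 11095 bp (W296 to W300), and the widest that were left out measured 11095, 11068, 11061, 11058 and 11048 bp. Width and the authors' rank picked largely different peaks, though the domains leaned to better ranks. Of the 300 domains, 22 were among the 300 best-ranked peaks, which make up 0.816% of all forebrain P7 peaks. In the better-ranked 50% of all peaks lay 297 domains. The best domain was ranked 3, the median domain 5821 and the worst 24692.

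The widest domain, W1, lay at chr18:69713864-69778683 (mm9, 1-based, as all positions here). W2 at chr7:86640550-86696465 was 55916 bp wide, W3 at chr2:44872296-44920648 was 48353 bp, W4 at chr3:88001449-88048602 was 47154 bp and W5 at chr2:44932249-44975556 was 43308 bp. W6 lay at chr13:83851626-83891253, W7 at chr1:42733808-42771870, W8 at chr11:23967353-24004332, W9 at chr9:62363193-62399504 and W10 at chr2:115867010-115903160. The deposited lists give positions and ranks without gene names, and no mm9 annotation was used here, so domains are named by position.

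The domains were not spread evenly. Chromosome 2 held 34 of them, 11.3% of the domains against 8.24% of all forebrain P7 peaks, chromosome 16 held 5 and chromosome X held 2. Linking domains at most 100 kb apart gave 44 groups with 97 domains, 35 groups of 2 and 9 groups of 3, and left 203 domains single. W3 and W5 formed one such group on chromosome 2, where domains filled 88.8% of 103.3 kb. W15 and W1 formed another on chromosome 18 and filled 80.3% of 120.9 kb. The nearest other forebrain P7 peak was a median of 4687 bp away from a domain, against 11443 bp for all peaks, and 154 domains (51.3%) had one within 5 kb, against 26.8% of all peaks.

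Depth and list length differed among the libraries in ways that touch every comparison below. Uniquely mapped reads ranged between 4108135 (liver P0) and 33394166 (forebrain E14.5) per H3K27ac library, with 26006075 in forebrain P7. Lists held between 7376 peaks (heart P21) and 39133 peaks (heart P0). The heart P21 list stood apart: the summary table deposited by the authors records 23852 peaks for it, and the heart P21 list labelled input holds 23762 peaks. For the heart P21 input library itself that table records 23763 peaks, so the input list is close to its own record. That input-labelled list covered 22.5% of domain bp, while the other 23 input lists covered 0.0% to 0.561%. Tests, class means and counts that use heart P21 are therefore given with and without it where it moves them. Track names in the file headers fall into 2 series, IO and LPAN. All forebrain lists except P56 replicate 2 belong to IO, all liver lists and 5 heart lists to LPAN, so tissue and library series cannot be fully told apart.

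Acetylation of the domain territory at other forebrain stages differed strongly by stage: peaks covered 34.3% and 28.2% of domain bp in the E11.5 lists, 43.7% at P21, and 55.6% to 77.0% in the other 5 lists. The median domain was covered by peaks over 28.65% and 20.2% of its length in the 2 forebrain E11.5 lists, 63.75% at E14.5, 50.2% at E17.5, 75.7% at P0, 40.2% at P21, and 90.1% and 65% in the 2 P56 lists. At least 50% of the length was covered in 81 and 59 domains in the E11.5 lists, 194 at E14.5, 150 at E17.5, 240 at P0, 107 at P21, and 246 and 192 in the P56 lists. As shares of the 300 these were 27% and 19.7% at E11.5, 64.7%, 50%, 80% and 35.7% from E14.5 to P21, and 82.0% and 64.0% at P56. The same shares over all forebrain P7 peaks were 31.2% and 23.4% at E11.5, 53.5%, 42.6%, 66.9% and 31.2% from E14.5 to P21, and 65.3% and 50.9% at P56. The domains thus lay below all peaks in both E11.5 lists and above them in the others by this count. E11.5 was the stage of least coverage and P56 replicate 1 and P0 those of most. None of the 300 was at 0 in all 6 other forebrain stages, with replicate 1 used where there were 2 lists. No peak touched 87 and 102 domains in the E11.5 lists, 16 at E14.5, 17 at E17.5, 3 at P0, 32 at P21, and 12 and 10 in the P56 lists. As shares these were 29.0% and 34.0% at E11.5, against 64.1% and 71.9% of all forebrain P7 peaks. At P21 the share was 10.7%, against 62.03%. In every one of these lists domains were left untouched less often than all peaks. A wider interval is touched more easily, and the part of width was not tested.

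Heart and liver covered far less of the same territory. The median domain was covered over 15.2% and 14.1% in the 2 heart E11.5 lists, 21.3% at E14.5, 13.47% at E17.5, 27.4% at P0, 23.8% at P7, 0.0% at P21 and 32.4% at P56. In liver the medians were 0.0% at E11.5, 0.0% at E14.5, 5.75% at E17.5, 0.0% at P0, 17.3% at P7, 17.9% at P21 and 13.47% at P56. Every heart and liver median was below every forebrain median from E14.5 on. Against the forebrain E11.5 lists, heart E14.5, P0, P7 and P56 exceeded the 20.2% of replicate 2, and heart P56 also exceeded the 28.65% of replicate 1. Pooled over all bp, the domains were covered more than the whole forebrain P7 list in each of the 8 other forebrain lists, for example 72.9% against 65.1% at P0 and 43.7% against 31.8% at P21. In all 7 liver lists and in 7 of 8 heart lists they were covered less, for example 31.0% against 39.7% in liver P7 and 35.6% against 43.9% in heart P7. Heart P21 had 6.08% of domain bp and 6.02% of the bp of all peaks.

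**Figure D1:**
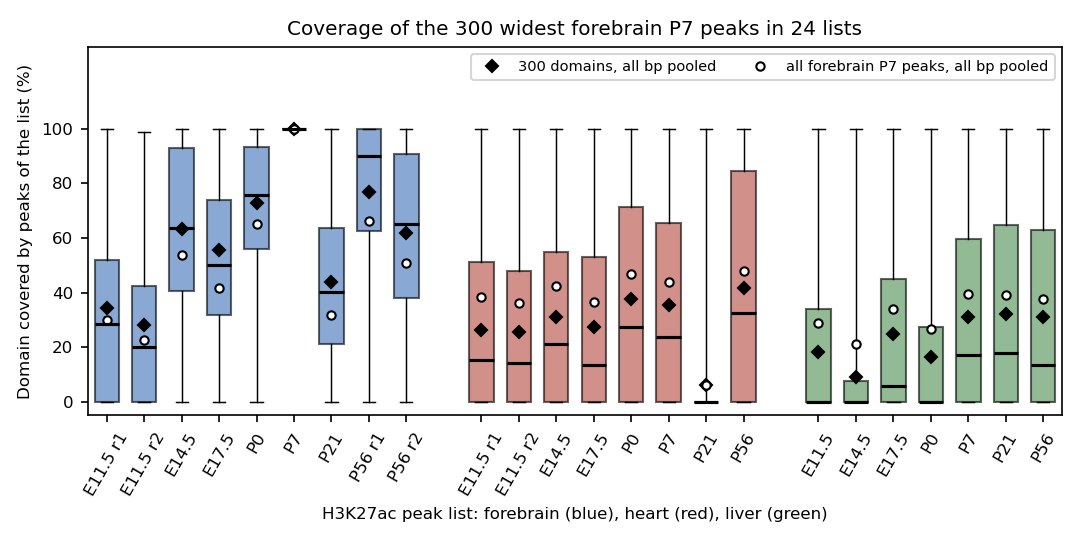
Percent of each domain covered by the peaks of each H3K27ac list, with stages in order within forebrain, heart and liver (r1 and r2 are replicates). Boxes show quartiles and medians over the 300 domains, whiskers the lowest and highest domain, diamonds the share of all domain bp and circles the share of bp of all forebrain P7 peaks; diamonds lie above circles in the 8 other forebrain lists and below them in heart and liver, apart from heart P21.

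Single domains fell into recognisable kinds. A first kind was acetylated in forebrain alone. W4 was covered over 91.1% and 82.3% in the forebrain E11.5 lists, 99.5% at E14.5, 97.4% at E17.5, 98.2% at P0, 67.1% at P21, and 96.7% and 73.3% in the P56 lists, against 0 bp in all 15 heart and liver lists. Its forebrain coverage in the lists of replicate 1 averaged 91.7% over the 6 other stages, and no heart or liver list overlapped it. W7 was covered over 84.2% and 82.9% at E11.5, 100% at E14.5, 99.8% at E17.5, 100% at P0, 49.5% at P21, and 88.9% and 72.0% at P56, and again over 0 bp in every heart and liver list. W6 was covered over 75% to 100% in all other forebrain lists, against 7.05% and 4.57% in the heart E11.5 lists, 4.54% at heart E14.5, and 0 bp in later heart and in liver. W66, at chr13:84887090-84905270, and W11, at chr3:34535434-34571537, completed the 5 domains with the largest excess of forebrain over heart and liver. W66 averaged 86.7% and W11 86.5% in the other forebrain stages, with 0.0% in heart and liver for both. W11 was at 97.8% and 88% in the E11.5 lists but at 36.9% at P21.

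W2 was also confined to forebrain among these lists, with an uneven course: 95.5% and 90.1% at E11.5, 39.6% at E14.5, 99.7% at E17.5, 39.0% at P0, 63.0% at P21, and 93.3% and 43.8% at P56. The replicates at P56 differed by more than many stages did, so no order of stages can be read for this domain. In all, 71 domains (23.7%) had 0 bp in all 14 heart and liver lists, against 33.8% of all forebrain P7 peaks. Their median coverage in forebrain was 23.5% at E11.5, 71.4% at E14.5, 59.7% at E17.5, 79.7% at P0, 24.98% at P21 and 75.3% at P56. In the other domains these medians were 29.4% at E11.5, 60.3% at E14.5, 47.4% at E17.5, 74.2% at P0, 42.8% at P21 and 94.1% at P56. The domains without heart or liver coverage were thus higher from E14.5 to P0 and lower at E11.5, P21 and P56, and their median over the 6-stage means was 56.7%, against 58.5% in the rest.

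A second kind was acetylated in all 3 tissues. W37, at chr11:98595302-98617317, was covered over 48.1% and 40.9% in the forebrain E11.5 lists, 70.7% at E14.5, 74.3% at E17.5, 98.8% at P0, 85.6% at P21, and 99.3% and 84.8% at P56. In heart it was covered over 75.1% and 70.7% at E11.5 and 76.0% to 83.0% at the other stages apart from 29.4% at P21, and in liver over 45.4% to 80.3%. W275, at chr6:136493457-136504801, had the highest minimum over the 20 other lists of replicate 1, 29.996% in liver P56, and was covered over 97.4% to 100% in heart from E14.5 on. W156, at chr2:92262587-92275979, W249, at chr2:25030776-25042470, and W242, at chr11:53332156-53343958, followed, with minima of 26.7%, 19.8% and 17.3% in those lists. This order rests on the doubted heart P21 list. W78, W166, W212 and W231 were at 0.0% in heart P21 but at 51.5% or more in every other list of replicate 1. Without heart P21 they would thus stand above W275 in the lists of replicate 1. In forebrain E11.5 replicate 2, W78 was at 19.3%, below the 25.8% of W275. With the 3 replicate 2 lists added the minima were 29.4% for W37, 25.8% for W275, 19.8% for W249, 13.4% for W156 and 12.7% for W242, so W37 then stood first. All of these but W37 had less mean coverage in the other forebrain stages than in heart, with or without heart P21, for example 50.8% against 84.6% for W242 and 64.3% against 92.5% for W156.

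Counted over all 300, no domain was covered over at least 50% in every one of the 20 other lists, against 0.166% of all forebrain P7 peaks. Without the heart P21 list there were 4, or 1.33%, against 12.4% of all peaks: W78, at chr3:87940828-87957982, W166, at chr5:123581205-123594345, W212, at chr5:65193085-65205403, and W231, at chr19:46573238-46585200. W78 was at 19.3% in forebrain E11.5 replicate 2, which is not among the 20 lists. Coverage of at least 50% in any stage of heart and of liver was found for 101 domains, in heart alone for 36, in liver alone for 11, and in neither for 152. That last share was 50.7%, against 38.6% of all forebrain P7 peaks, and these 4 counts were the same without heart P21. The same minimum held in all 6 other forebrain stages for 27 domains (9.0%), against 18.3% of all peaks, and 4 of these 27 had 0 bp in heart and liver (1.33%, against 0.454%): W4, W25, W64 and W66. The number of other forebrain stages that reached 50% was 0 for 10 domains, 1 for 34, 2 for 51, 3 for 54, 4 for 62, 5 for 62 and 6 for 27.

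**Figure D2:**
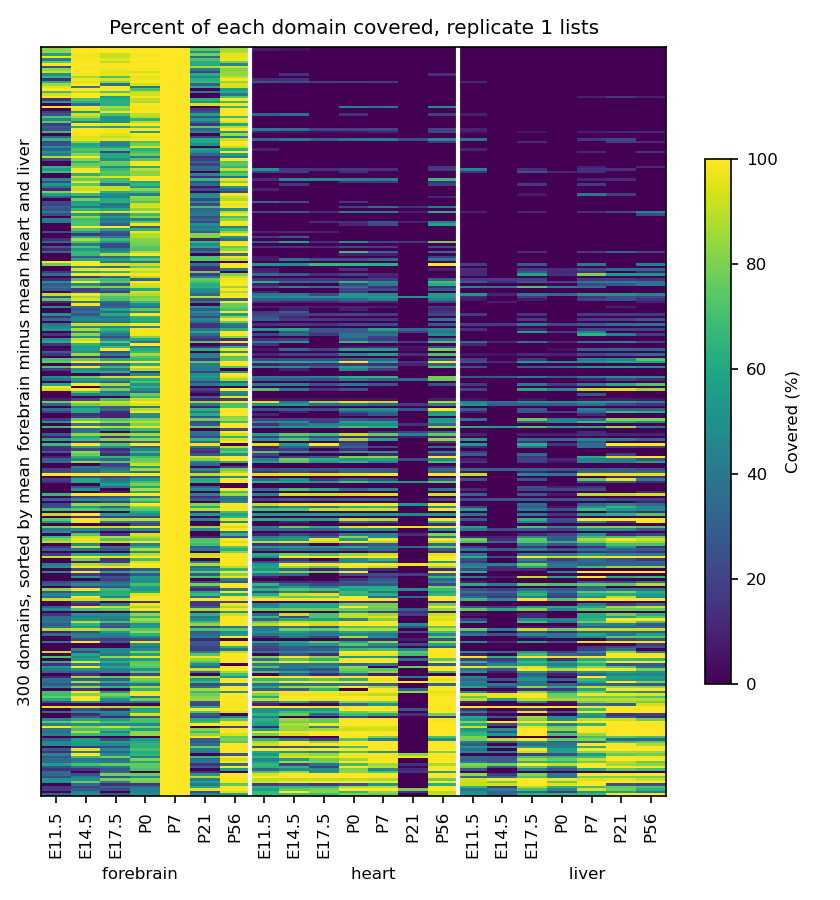
Percent of each of the 300 domains (rows) covered in the 21 lists of replicate 1 (columns, stages in order within forebrain, heart and liver), sorted by mean forebrain coverage without P7 minus mean heart and liver coverage. The upper rows are bright in forebrain and dark in heart and liver, the lower rows are bright in most lists of all 3 tissues, and the forebrain P7 column is at 100% by the way the domains were chosen.

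Whether forebrain coverage exceeded heart and liver coverage was tested peak by peak. Every tested peak was called in forebrain P7, so a lean to forebrain is built into the choice of peaks. The domains were chosen further by width in that list. The p-values do not account for either choice, so shares of domains are given beside those of all forebrain P7 peaks. For every forebrain P7 peak, the difference between mean forebrain coverage and mean heart and liver coverage over the 6 stages other than P7 was compared with its values under all 729 reassignments of the 3 tissue labels within stages, an exact two-sided permutation test. The difference was positive for 258 domains and negative for 42, with a median of 31.4 percentage points, quartiles of 10.9 and 50.8 and a range of -21.9 to 91.7. Over all forebrain P7 peaks the median was 7.49 points and 59.8% were positive.

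After Benjamini-Hochberg adjustment over all 36771 peaks, 0 domains and 0.0% of all peaks passed 0.05 in either direction in the exact permutation test, the lowest adjusted p being 0.052. The smallest p that 729 reassignments allow is 0.00137, and 65 domains (21.7%) reached it, against 2.64% of all peaks. A peak whose forebrain coverage equals that of heart or liver at any stage cannot reach it. In forebrain E11.5 replicate 1, 29.0% of domains and 64.1% of all peaks were at 0. The part of peak width in this contrast was not tested. At an unadjusted p under 0.05, 175 domains (58.3%) were higher in forebrain, against 20.4% of all peaks, and 0 were lower, against 3.89%. With the heart P21 list left out, the same permutation test called 124 domains (41.3%) higher in forebrain at an adjusted p of 0.05, against 6.77% of all peaks, and 2 domains (0.667%) lower, against 7.8%. At an unadjusted p under 0.05 it then found 173 domains higher and 5 lower, against 18.9% and 14.4% of all peaks. The 124 differed by 18.8 to 91.7 points, with a median of 54.8. W1, W2, W4, W6, W7, W8, W11 and W66 were among those higher in forebrain, with adjusted p between 0.031 and 0.0424 over the calls. W3, W5, W9 and W10 did not pass, with differences of 0.648, 9.26, 24.1 and 21.7 points without heart P21.

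**Figure D3:**
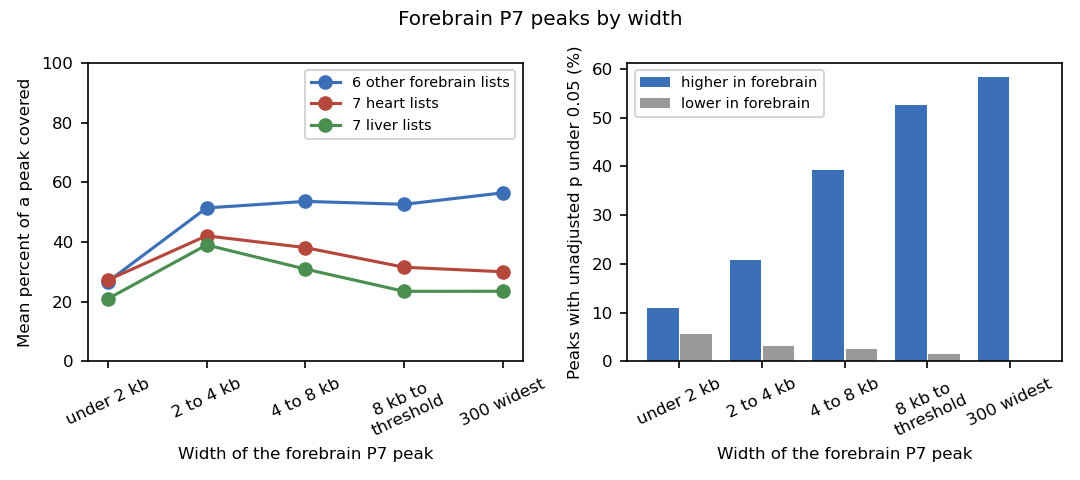
Forebrain P7 peaks by width class: mean percent of a peak covered in the 6 other forebrain stages, heart and liver (left), and percent of peaks higher or lower in forebrain at an unadjusted p under 0.05 in the exact permutation test (right). The share higher in forebrain is 10.9% under 2 kb and 58.3% in the 300 widest, while mean coverage in the other forebrain stages is 51.4% or more in every class from 2 kb on. Heart P21 is included; without it the share lower in forebrain is 19.3% from 2 to 4 kb and 1.67% in the 300 widest.

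This difference grew with the width of the peak, and the part that ties at 0 play in it was not tested. The share higher in forebrain at an unadjusted p under 0.05 was 10.9% of peaks under 2 kb, 20.8% from 2 to 4 kb, 39.2% from 4 to 8 kb, 52.7% from 8 kb to the threshold, and 58.3% of the domains. Without heart P21 it was 10.3%, 19%, 36.5%, 50.2% and 57.7%, and the share lower in forebrain was 9.3%, 19.3%, 10%, 3.47% and 1.67%. Mean forebrain coverage without P7 was 26.7%, 51.4%, 53.6%, 52.7% and 56.5% in these classes. Mean heart coverage was 27.3%, 42.1%, 38.1%, 31.6% and 30.1% with heart P21 and 30.9%, 48.2%, 43.3%, 35.7% and 33.9% without it, and mean liver coverage 20.98%, 39.0%, 31.0%, 23.5% and 23.5%. From 2 kb on, wider peaks were therefore covered to a like extent in forebrain and to a smaller extent in heart and liver.

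Domains that the authors ranked high and domains that they ranked low differed in where they were shared. In the 100 best-ranked domains (ranks 3 to 2412) the median of the mean coverage was 67.7% in other forebrain stages, 51.6% in heart and 43.3% in liver. In the middle 100 these were 58.4%, 15.5% and 1.53%, and in the 100 worst-ranked (ranks 8588 to 24692) 44.2%, 6.45% and 1.66%. Without heart P21 the heart medians were 56.2%, 17.7% and 7.19% from the best-ranked to the worst-ranked. In forebrain at E11.5 the medians were 42.9% for the best-ranked, 26.9% for the middle and 0.0% for the worst-ranked domains. Sorting the same domains by width gave smaller differences, with medians of 60.02%, 55.4% and 57.0% in other forebrain stages from the widest to the narrowest 100. These are descriptions, since rank and width come from the same P7 list.

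Set side by side at single stages, domains higher in forebrain outnumbered those higher in heart at E14.5, E17.5, P0 and P56. The counts were close at E11.5. At E14.5 forebrain was higher than heart in 220 domains and lower in 65 (33.8% and 29.7% of all peaks). For E17.5 the counts were 210 and 79 (26.7% and 32.9%). The P21 counts, 254 domains higher in forebrain and 17 in heart (35.8% and 6.23% of all peaks), rest on the doubted heart P21 list. Against liver P21, forebrain was higher in 174 domains and lower in 102 (13.7% and 38.7% of all peaks). At E11.5, 125 domains (41.7%) had more coverage in forebrain and 120 in heart (replicate 1). Of all forebrain P7 peaks, 14.1% were higher in forebrain and 38% in heart, so the domains leaned further to forebrain than all peaks did. These lists held 15823 peaks in forebrain and 32289 in heart, and the part of list length was not tested. In replicate 2, also from the IO series, the counts were 109 and 122, against 9.16% and 38.3% of all peaks. Against liver E11.5, forebrain was higher in 162 domains and lower in 67, against 16.5% and 27.4% of all peaks. At P0, forebrain was higher than heart in 220 domains and lower in 78 (42.9% and 34.3% of all peaks), and higher than liver in 279 and lower in 18 (54.3% and 18%). At P56, forebrain replicate 1 was higher than heart in 216 and lower in 48 (36.3% and 28.4%). Within the LPAN series, forebrain P56 replicate 2 was higher than liver P56 in 232 domains and lower in 55 (30.8% and 29.4% of all peaks), with medians of 65% and 13.47%. These stages have 1 or 2 lists each, so the counts have no test, and whether the excess differs between stages was not tested.

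Within forebrain, P56 and E11.5 are the stages with 2 lists each. Both P56 lists exceeded both E11.5 lists in 223 domains (74.3%), against 40.7% of all forebrain P7 peaks, and both lay below in 17 (5.67%), against 4.74%. The smallest p an exact permutation test allows for 2 lists against 2 is 0.333, so no single domain can pass 0.05. The P56 lists were also longer, with 33178 and 25709 peaks against 15823 and 11871 at E11.5. With all 4 lists cut to the same number of best-ranked peaks, the counts were 171 domains above and 30 below. The replicates were themselves apart. P56 replicate 2 was higher than replicate 1 in 43 domains and lower in 225 (11.1% and 52.5% of all peaks). E11.5 replicate 2 was higher than replicate 1 in 46 and lower in 172 (6.98% and 28.7%).

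After and before birth, using P0, P21 and P56 against E11.5, E14.5 and E17.5 (replicate 1), all 3 postnatal values exceeded all 3 prenatal values in 58 domains (19.3%), against 6.66% of all peaks. All 3 lay below in 9 domains (3.0%), against 1.06%. An exact permutation test of 3 against 3 cannot go below p = 0.1. The P21 list was the shortest postnatal forebrain list, with 15246 peaks at 24025446 reads. Without stage P21, 128 domains were higher after birth and 9 lower, against 8827 and 396 of all peaks. Leaving out a stage can only keep or raise these counts, and no other stage was left out for comparison. The part of the P21 list in them was therefore not tested.

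The course over stages was not a steady gain. From one stage to the next, E14.5 was higher than E11.5 in 269 domains and lower in 15, E17.5 was higher than E14.5 in 76 and lower in 211, and P0 was higher than E17.5 in 253 and lower in 43. P56 replicate 1 was higher than P21 in 281 and lower in 15. All forebrain P7 peaks took the same turns: 50.4% were higher and 4.14% lower at E14.5 than at E11.5, 9.19% and 49.5% at E17.5 than at E14.5, 62.8% and 7.53% at P0 than at E17.5, and 66.3% and 2.34% at P56 than at P21. Coverage was lowest at E11.5 in 184 domains and at P21 in 80, and highest at P56 in 151, at P0 in 69 and at E14.5 in 64. These steps ran alongside list length: the lists held 15823, 27288, 20450, 30308, 15246 and 33178 peaks at E11.5, E14.5, E17.5, P0, P21 and P56. The part of list length in the steps was not tested.

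Domains gained late and domains lost late could still be told apart one by one. The mean of P21 and P56 minus the mean of E11.5 and E14.5 had a median of 13.4 points, was over 50 in 39 domains (13%) and under -50 in 15 (5.0%). Over all forebrain P7 peaks the median was 0.0 points, with 6.85% over 50 and 5.41% under -50, so the share of domains lost late was close to that of all peaks. With replicate 2 at E11.5 and P56, 32 domains were over 50 and 12 under -50. W103, at chr18:60778287-60793700, had the largest gain: 0.0% in both E11.5 lists, 25.4% at E14.5, 11.8% at E17.5, 57.7% at P0, and 100% at P21 and in both P56 lists. Heart covered it over 49.7% and 56.5% at E11.5 and 100% at P0, P7 and P56, with 25.2% at P21, and liver over 100% at P21 and P56. Late forebrain, late liver and heart at P56 were thus all filled over this domain. W248, at chr2:92527004-92538712, showed a gain in forebrain alone, with 0.0% in both E11.5 lists, 15.5% at E14.5, 21.2% at E17.5, 88% at P0, 81.4% at P21, 100% in both P56 lists and 0 bp in every heart and liver list. W251 on chromosome 19 gained 81.1 points with either replicate. W167 on chromosome 7 gained 85.8 points with replicate 1 but 45.8 with replicate 2, since it was at 100% and 19.9% in the P56 lists. Both domains were at 100% in heart P7 and heart P56.

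W62, at chrX:166407652-166426301, ranked with these 5 but stands apart. It was the 1 domain overlapped by peaks of input lists other than heart P21 and liver P0, in 9 input lists in all. Its forebrain coverage was 0.0% at E11.5, E14.5, E17.5 and P0, 98.8% at P21, and 75.9% and 58.0% at P56. Leaving it out changed 223 to 222 domains higher at P56 than at E11.5. It left the tissue-test counts of 175 and 124 and the count of 58 higher after birth as they were. The 39 domains over 50 points, and the 32 with replicate 2, include W62.

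Loss was clearest at W298, at chr9:91271578-91282687. It was covered over 99.7% and 72.6% in the E11.5 lists, 100% at E14.5, 42.4% at E17.5 and 35.3% at P0, and over 0 bp at P21 and in both P56 lists. No heart or liver list covered it at any stage. W82, at chrX:90529180-90545753, was at 81.2% and 36.1% at E11.5, 100% at E14.5, 62.5% at E17.5, 68.8% at P0, 0.0% at P21, and 19.4% and 0.0% at P56. W294, at chr14:13169894-13181030, had 93.2% to 100% from E11.5 (replicate 1) to P0, then 0.0% at P21 and 39.4% and 29.4% at P56. W164, at chr2:105510749-105523948, had 100% at E11.5 (replicate 1), E14.5 and E17.5, 71.9% at P0, 0.0% at P21, and 55.9% and 24.7% at P56. W82, W294 and W164 were all at 0 bp in heart and liver. W70, at chr7:77498911-77516863, differed: forebrain coverage was 98.5% at E11.5 and 0.0% at P21, while liver P7, P21 and P56 and heart P56 were at 100%.

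The widest domains did not share a course. W1 was covered over 14.485% and 15.4% at E11.5, 84.9% at E14.5, 39.9% at E17.5, 87.2% at P0, 42.7% at P21, and 100% and 73.9% at P56. Heart reached 71.3% and liver 34.0% over W1 at P56. W3 was covered over 13.6% and 7.16% at E11.5, 42.6% at E14.5, 43.7% at E17.5, 76.6% at P0 and 49.4% at P21, then 0.0% and 31.6% in the 2 P56 lists. In liver W3 reached 60.3% at E17.5 and 63.4% at P7, so it was the 1 domain among the 10 widest whose mean coverage was lower in the other forebrain stages than in liver, at 37.6% against 41.7%. Its neighbour W5 was covered over 98.1% and 60.5% at P56 in forebrain.

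**Figure D4:**
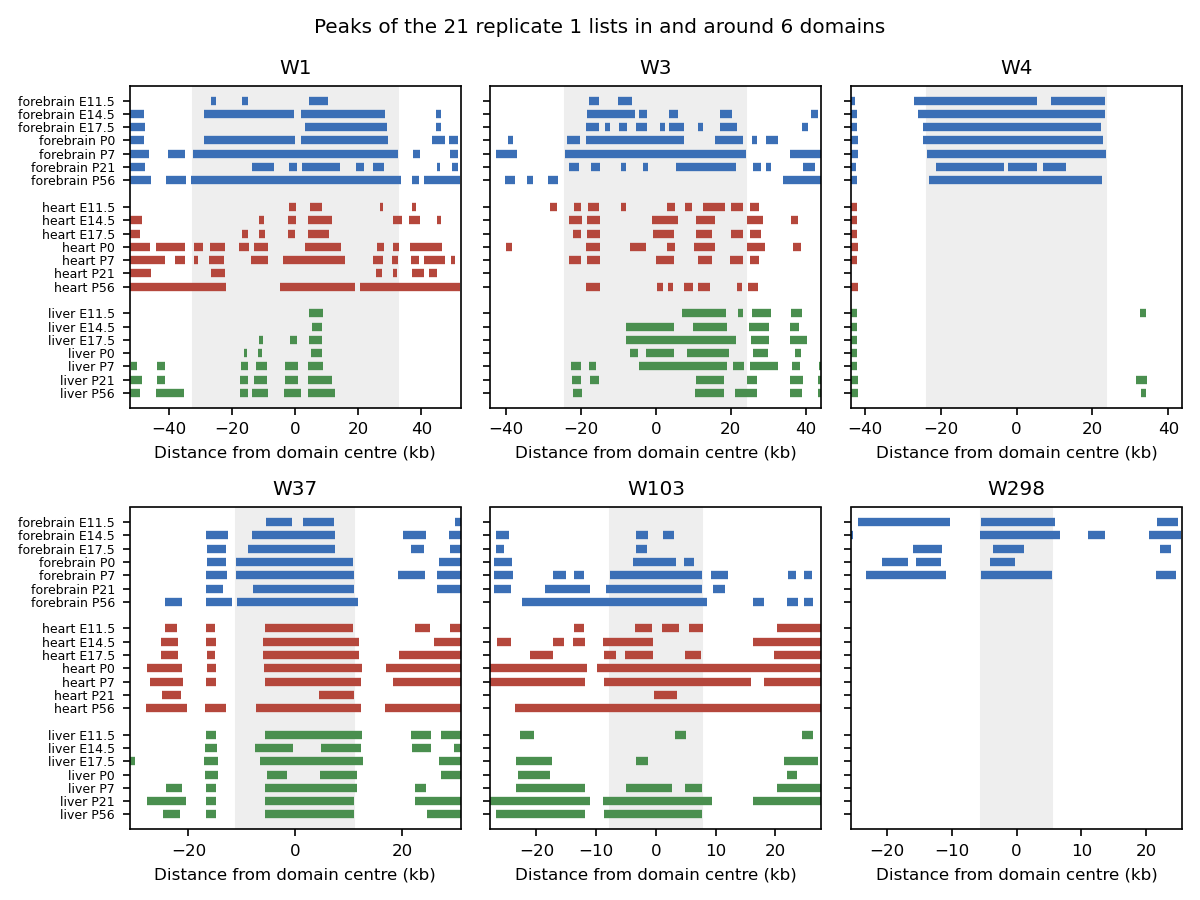
Peaks of the 21 replicate 1 lists in and around 6 domains, drawn as bars against distance from the domain centre in kb, with forebrain at the top, then heart and liver, and the domain shaded. Inside the shaded domain, W4 has forebrain peaks at every stage and none of heart or liver, which lie outside it, W37 has peaks in every list, W103 is filled at P56 in all 3 tissues, and W298 has forebrain peaks up to P7 and none after.

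Where a domain was covered at another forebrain stage, it was often broken into pieces. The longest single peak covered a median of 21.8% of a domain at E11.5 (replicate 1), 51.1% at E14.5, 37.6% at E17.5, 61.3% at P0, 27.8% at P21 and 89.3% at P56 (replicate 1). A single peak met the domain in 122, 194, 157, 183, 127 and 226 of the 300 at these stages, and 2 or more in 91, 90, 126, 114, 141 and 62. Up to 8 peaks of 1 list lay in a domain at E17.5. At P21 broken domains outnumbered domains with 1 peak, at 141 against 127.

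The ends of the domains were less often covered than the middle. In the outer bins (the first and last 2 of 20) and the 4 middle bins, mean coverage was 23.9% and 33.6% at forebrain E11.5 replicate 1, 50.6% and 64.3% at E14.5, 37.1% and 56.02% at E17.5, 58.4% and 73.4% at P0, 25.8% and 47.2% at P21, and 65.2% and 81.6% at P56 replicate 1. The middle exceeded the ends by 9.69 to 21.3 points in these 6 lists, by 1.55 to 6.93 points in heart and by -1.06 to 6.03 points in liver. Edges were set by the forebrain P7 peaks, so lower coverage at the ends in another list has no test here.

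**Figure D5:**
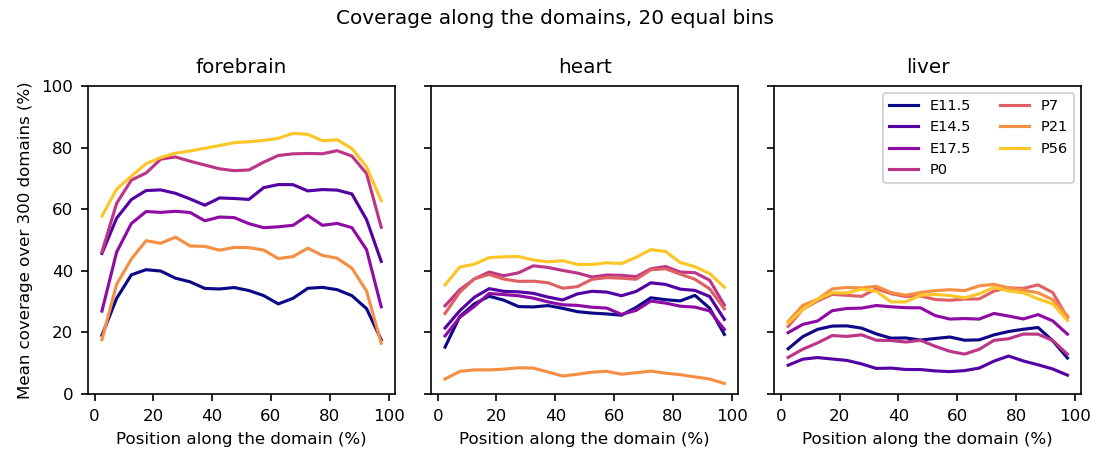
Mean percent covered over the 300 domains in 20 equal bins along each domain, one line per stage (replicate 1) in forebrain without P7, heart and liver. Forebrain lines lie lower in the outermost bins than in the middle at every stage, most at P21 (by 21.3 points), and heart and liver lines are flatter.

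Some of the domains were also among the widest peaks of other forebrain lists. The 300 widest peaks of another forebrain list met between 68 domains (22.7%, E11.5 replicate 2) and 160 (53.3%, P0), against 0.808% and 0.884% of all forebrain P7 peaks. The 300 widest of heart P7 met 29 (9.67%, against 1.46% of all peaks) and those of liver P7 met 18 (6.0%, against 1.18%), and 10 domains were met by both. At least 1 other forebrain stage (replicate 1) had 1 of its 300 widest peaks on 235 domains. All 6 had one on 21 domains, and 10 of these were met by none of the 300 widest of any heart or liver list. W2, W4, W5, W6, W7, W8 and W10 were among the 21, while W1, W3 and W9 were not. Over the whole series, 224 domains were met by none of the 300 widest peaks of any heart or liver list, 65 by those of at least 1 heart list and 39 by those of at least 1 liver list. Without heart P21, the first 2 of these counts were 225 and 63. Counts over several lists together were not made for all peaks, so they have no share beside them. The 300 widest of a single heart or liver list met 2.0% (liver E14.5) to 12.0% (heart E17.5) of domains. Of all forebrain P7 peaks they met 0.71% (heart P21) to 2.07% (heart P56), and in each of these lists the share of domains was the higher.

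The number of domains that can be called wide depends on how peaks are joined. With forebrain P7 peaks at most 1 kb apart joined, the 300 widest were the same 300 peaks. With peaks at most 10 kb apart joined, 105 domains lay inside the 300 widest joined regions, in 84 regions of 40739 to 140550 bp that held up to 13 peaks each. Width here is thus the width of a single called peak and not of a run of neighbouring peaks.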

How the data were processed

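Per the submitters' processing notes the tools were BWA and MACS 1.4 and the build was mm9; their settings are not given here. The authors deposited a peak list for each library, H3K27ac or input, and the peak positions in these deposited lists (unit other, start and end in bp) carry the authors' rank and no signal value. The read counts and peak counts come from the summary table deposited by the authors. Its rows were assigned by the tissue, stage, antibody and replicate they name; it writes p1 for the stage labelled P0 and p20 for P21.

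Widths are end minus start. Overlapping peaks within a list were merged and covered bp per domain were computed with Python 3.11.15, numpy 2.4.6, pandas 2.3.3 and scipy 1.17.1, and figures with matplotlib 3.10.9. Lists hold no counts per peak, so coverage was compared by exact permutation of tissue labels within stages, with Benjamini-Hochberg adjustment over all 36771 forebrain P7 peaks at 0.05, and by counts of groups that do not overlap. Replicate 1 was used unless both are given. Scripts were tested on simulated data. Peak coverage depends on list length and depth, so equal list lengths were an alternative. P-values measure the spread between these lists. Domains are named by a rule: the 10 widest, 5 each for highest minimum, excess over heart and liver, gain and loss, and 5 on each side of the width threshold; other domains were named after their values were seen. Domains, rules and lists were chosen with earlier results of these data known. Gene markers were not used because no mm9 annotation was used here.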

Additional observations from a re-analysis of the deposited data

Results flagged for a closer look

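The heart P21 list labelled input covered 22.5% of the bp of the 300 domains and overlapped 145 of them, whereas the other 23 input lists covered 0.0% to 0.561%. It was singled out because an input list should hold little signal and no comparison above uses it. The heart P21 list labelled H3K27ac covered 6.08%. Which of the 2 lists carries which library was not tested, and both are named by their labels.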

How the results depend on the processing

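Peak lists record presence without height, so list length and depth limit every value. Of 153 alternative values, 114 lay within 1.5 times the reported count or, for a median coverage, within the replicate SD of 10.8 points. Many of the 114 are tissue-test counts that were 0 and stayed at 0, so they are not separate checks. They include heart alone without P21, a setting that could make no call. The tissue test, with 0 calls as reported, called 82 domains higher and 1 lower in forebrain without stage P21 (1642 and 1520 of all peaks), 124 and 2 without the heart P21 list (2490 and 2867), 163 and 0 with stage P7, which chose the domains, added (4717 and 353), and 70 and 0 one-sided (1087 and 0). The other settings, among them heart and liver alone, made 0 calls. With heart or liver alone the lowest p of the exact permutation test was 0.03125. A peak could then pass the adjustment only if most of all peaks reached that p, so these 0 calls decide nothing. At an unadjusted p under 0.05 in that test, 82 domains were higher in forebrain with heart alone and 3 lower (1462 and 590 of all peaks). With liver alone these counts were 99 and 3 (1548 and 2074 of all peaks). Heart alone without P21, an alternative chosen after seeing the data as were leaving out domains that input lists overlap, the width, rank and 50% descriptions without heart P21 and gain or loss with replicate 2, cannot pass.

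The median of mean coverage, 58.2% in other forebrain stages, 20.8% in heart and 10.9% in liver, was 26.7% in forebrain for regions joined within 10 kb. With every list cut to 12474 best-ranked peaks (heart P21 has fewer) it was 6.33% in heart and 0.0% in liver, and 119 domains had 0 bp in both tissues. With forebrain lists cut to one length, P56 lay below E11.5 in 30 domains, above it in 7511 of all peaks, and 624 of all peaks were lower after birth. Without stage P21, 128 domains and 8827 of all peaks were higher after birth. Leaving out 1 replicate, 19 to 40 domains and 1943 to 3444 of all peaks were lower at P56 than at E11.5, and 246 to 585 of all peaks were lower after birth.

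A minimum of 25% kept 119 domains in all other forebrain stages, 21 of them at 0 bp in heart and liver, and 3 in every list. A minimum of 75% kept 6 and 0. Without heart P21, 4 domains were covered in every list. The 100 widest held 12 kept and 24 at 0 bp in heart and liver. The 1000 widest held 107 and 208, with 7 in both sets and 1 covered in every list. The cause of these shifts was not tested, beyond the smaller or larger sets themselves.

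With the replicate number as a replicate block, P56 lay above E11.5 in both pairs in 236 domains and below in 25 (16169 and 2166 of all peaks). Same-numbered lists did not deviate together (correlation -0.012). A single correlation cannot decide whether the numbers pair these lists, and the P56 replicates also belong to different library series.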
